A study of Homo sapiens with 4 samples.

Results

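The enzymes that build UMP, UTP and CTP from small precursors, or recover them from uridine, were examined in BT474 cells, an established human HER2-amplified luminal breast cancer line, after treatment with AICAR. The genes were CAD, DHODH, UMPS, CTPS1, CTPS2, UCK1, UCK2, UPP1 and CMPK1, and a probe set was included if the platform annotation listed 1 of these 9 symbols for it and no other gene. These criteria gave 18 of the 54675 probe sets on the array, for 8 of the 9 genes. The 2 probe sets annotated to UCK2 also list a microRNA gene, and because a probe set with several symbols was assigned to no gene, UCK2 is not reported here. Total RNA came from 2 samples labelled AICAR (0.5 mM, 24 h) and 2 labelled vehicle (24 h), all grown in DMEM, and each was hybridised to 1 Affymetrix array. Nothing in the labels says whether the 2 samples of a group were separate cultures, so the spread that the p-values measure may be purely technical, and with so few arrays every estimate is imprecise.

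De novo pyrimidine synthesis runs in the cytosol and at the mitochondrial inner membrane. CAD, a single polypeptide with carbamoyl phosphate synthetase, aspartate transcarbamylase and dihydroorotase activities, makes dihydroorotate, DHODH oxidises it to orotate while passing electrons to ubiquinone, and UMPS joins orotate to PRPP and decarboxylates the product to UMP. CMPK1 phosphorylates UMP and CMP, and the CTP synthases CTPS1 and CTPS2 aminate UTP with glutamine. In salvage, the kinases UCK1 and UCK2 return uridine and cytidine to the nucleotide pool, whereas UPP1 cleaves uridine reversibly to uracil and ribose 1-phosphate. AICAR is a nucleoside that cells phosphorylate to ZMP, an AMP mimic that activates the kinase AMPK. The comparison asks how the transcripts of this pathway differed after exposure to AICAR.

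The starts of the genes whose probe sets differed most are shown here with short motif matches, so that the regulatory sequence can be read beside the values. The windows covered the 250 bases before each RefSeq start (GRCh38.p14), on both strands, and the 9 genes had 13 such windows among 35116 in the genome. Capitals mark the match, and each line runs 5′ to 3′ on the gene's own strand. The E-box CACGTG occurred in 1 of the 13 windows, that of DHODH, and in 6.34% of all windows. The core of the estrogen-related receptor element, AAGGTCA, occurred in 1 of the 13, at the downstream one of 2 CTPS1 starts, where it reads TGACCTT on the gene's strand, and in 3.44% of all windows. The GC box GGGCGG occurred in 7 of the 13 and in 42.6% of all windows. These were windows of CAD, CTPS1, CTPS2, DHODH and UCK2, and overlapping windows of UPP1 that hold the same GC boxes. Only 1 match of each gene is printed below, and where copies lie close together their windows overlap.
DHODH, chr16:72008574-72008601, + strand, E-box: ccgctactgcgCACGTGcacccaaccag
CTPS1, chr1:40988330-40988358, + strand, receptor core: cctctctcatcTGACCTTtttcttgaaat
CTPS2, chrX:16712243-16712270, − strand, GC box: ccagggcctctCCGCCCtgcacccccag
UPP1, chr7:48089200-48089227, + strand, GC box: acccccgggcaGGGCGGggccgctcgca
The CCAAT box occurred in 3 of the 13 windows and in 32% of all, while the E2F forms TTTCGCGC and TTTGGCGC occurred in 0 of the 13 and in 0.439% and 0.55% of all. These are matches of letters, and binding was not measured.

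Across the pathway the uridine-cleaving enzyme UPP1 was higher with AICAR, 1 of the 2 CTPS2 probe sets was lower, and no other probe set passed the test. The single CTPS1 probe set and 2 of the 3 DHODH probe sets had negative differences of similar size that narrowly missed the threshold, while the tested probe sets of CAD, UCK1, UMPS and CMPK1 differed less. Values are deposited log2 expression values per probe set, and a probe set counts as higher or lower at a limma adjusted p under 0.05, two-sided, over all 38229 probe sets whose mean over the 4 arrays reached the 30th percentile (log2 5.21). In bulk RNA, fewer cells of a kind and less RNA per cell cannot be told apart.

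Of the 18 probe sets 16 were tested, and 1 was higher and 1 lower, set beside 3.84% of all tested probe sets called in either direction, 1.43% higher and 2.42% lower. Before adjustment, a p under 0.05 was reached by 1 with a positive and 4 with a negative difference, against 8.44% and 12.2% of all tested probe sets. Differences were negative in 12 and positive in 4, from -0.52 to 0.72, with a median of -0.09 (log2), against a median of 0.0037 over all tested probe sets. The AICAR and vehicle values did not overlap in 9 of the 16, of which 8 were negative, against 51.6% of all tested probe sets in either direction and 27% in the negative one. Among the 18, 6 genes had more than 1 probe set, and probe sets of the same gene are not independent. The remaining 2 probe sets, CAD 1564084_at and CMPK1 1570533_at, lay below the bound for dim probe sets.

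**Figure D1:**
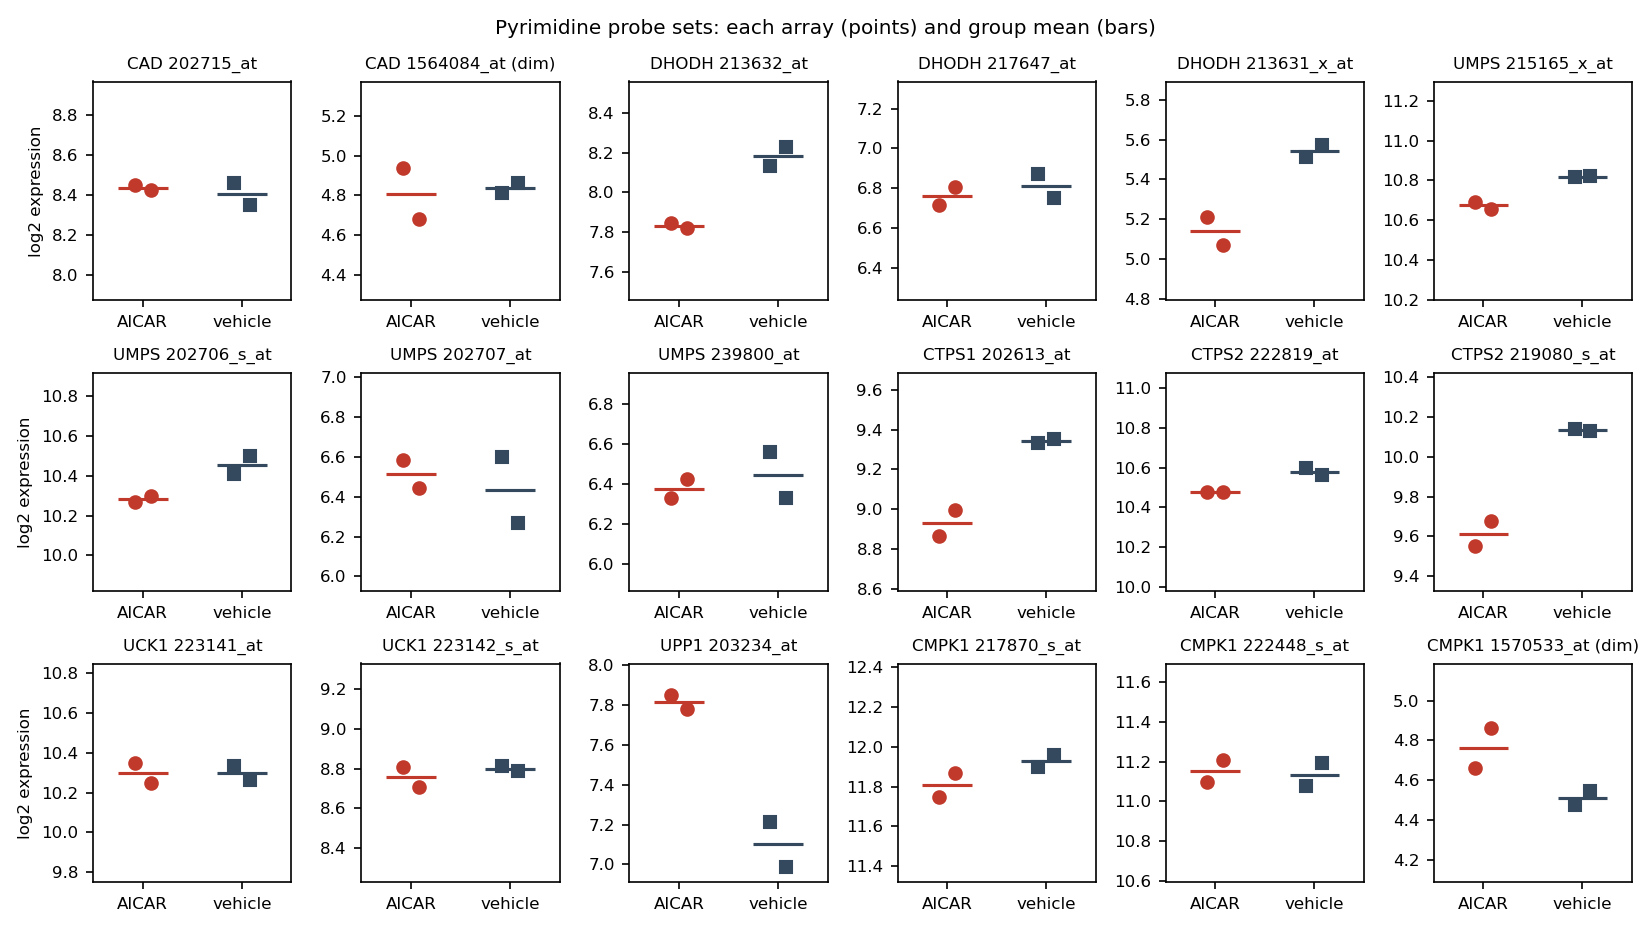
Deposited log2 expression (vertical axis, the same height of 1.1 log2 units in every panel) of the 18 pyrimidine probe sets, with AICAR arrays as circles, vehicle arrays as squares and group means as bars (n = 2 each). The groups lie farthest apart for UPP1 and for CTPS2 219080_s_at, and they overlap for CAD and for UCK1.

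The first enzyme of the pathway, CAD, showed no difference that the test could detect. Its probe set 202715_at read 8.45 and 8.42 (log2) in AICAR cells and 8.46 and 8.35 in vehicle cells. The AICAR values lay between the vehicle values, and the difference was 0.03 (95% confidence interval -0.17 to 0.23, limma adjusted p = 0.875). The dim probe set 1564084_at read 4.94 and 4.68 with AICAR and 4.81 and 4.86 with vehicle, and a fit of all probe sets without the filter gave -0.03 (adjusted p = 0.933).

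DHODH, the only step of the pathway inside mitochondria, was measured by 3 probe sets. In 213632_at, the brightest of them, values were 7.85 and 7.82 (log2) with AICAR, against 8.13 and 8.23 with vehicle. The groups did not overlap, and the difference of -0.35 (95% confidence interval -0.55 to -0.15) had a limma adjusted p = 0.0743, short of a call. The probe set 213631_x_at read 5.21 and 5.07 in AICAR cells and 5.51 and 5.57 in vehicle cells. Its difference was -0.40 (-0.62 to -0.19, adjusted p = 0.0634), close to the bound for dim probe sets, and the suffix _x_at marks probes that may also bind other transcripts. The third, 217647_at, read 6.72 and 6.81 with AICAR and 6.87 and 6.75 with vehicle, overlapping groups with a difference of -0.05 (-0.26 to 0.17, adjusted p = 0.807). Where 1 probe set per gene was tested, which leaves 16176 tests, DHODH 213632_at passed (adjusted p = 0.0483), and so did the mean of its 3 probe sets (-0.27, adjusted p = 0.0425). Over the alternatives that kept all 4 arrays, the limma adjusted p of 213632_at ran from 0.0305 (trended robust variances) to 0.118 (blocking on the replicate number).

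UMPS, which completes UMP synthesis, had 4 probe sets, none of which passed. The brighter pair gave small negative differences without overlap. In 215165_x_at the values were 10.69 and 10.66 (log2) with AICAR and 10.82 and 10.82 with vehicle (difference -0.14, 95% confidence interval -0.33 to 0.04, limma adjusted p = 0.360). In 202706_s_at they were 10.27 and 10.30 with AICAR and 10.41 and 10.50 with vehicle (difference -0.17, -0.37 to 0.02, adjusted p = 0.302). The dimmer pair overlapped between groups and had opposite signs. The probe set 202707_at differed by 0.08 (-0.23 to 0.39), with vehicle values of 6.60 and 6.27 that spread around the AICAR values of 6.58 and 6.44. The probe set 239800_at differed by -0.07 (-0.32 to 0.18).

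The CTP synthases contributed the only call in the negative direction. CTPS2 fell in probe set 219080_s_at, whose probes are shared by several transcripts. It read 9.55 and 9.68 (log2) in AICAR cells and 10.14 and 10.13 in vehicle cells. The gap between the groups exceeded the distance between the arrays of either group, and the level was 1.43-fold lower (difference -0.52, SE 0.0850, 95% confidence interval -0.72 to -0.31, limma adjusted p = 0.0356). Only 2.04% of tested probe sets had a more negative difference. The other CTPS2 probe set, 222819_at, read 10.47 and 10.48 with AICAR and 10.60 and 10.56 with vehicle. Its groups did not overlap either, but the difference was -0.10 (-0.29 to 0.09, adjusted p = 0.521), and its interval does not reach the value of 219080_s_at. The mean of both probe sets differed by -0.31 (adjusted p = 0.0312).

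CTPS1, the isoform that proliferating lymphocytes depend on in humans, was measured by 202613_at alone. It read 8.87 and 8.995 (log2) with AICAR and 9.33 and 9.35 with vehicle. The groups were well separated, and the difference was -0.41 (SE 0.0853, 95% confidence interval -0.62 to -0.21). The limma adjusted p was 0.0556 over all probe sets and 0.0366 where 1 probe set per gene was tested. Over the alternatives that kept all 4 arrays it ran from 0.0059 (trended robust variances) to 0.0823 (blocking on the replicate number). Whether the CTP synthases changed unequally was asked within each array, as CTPS1 minus the brightest CTPS2 probe set. That log2 difference was -1.61 and -1.48 in AICAR arrays and -1.26 and -1.21 in vehicle arrays, a shift of -0.31. An exact two-sided permutation test gave p = 0.33, the smallest that 2 against 2 arrays allow. Against the other CTPS2 probe set the shift was 0.11, so the sign of this contrast rests on the probe set taken for CTPS2.

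**Figure D2:**
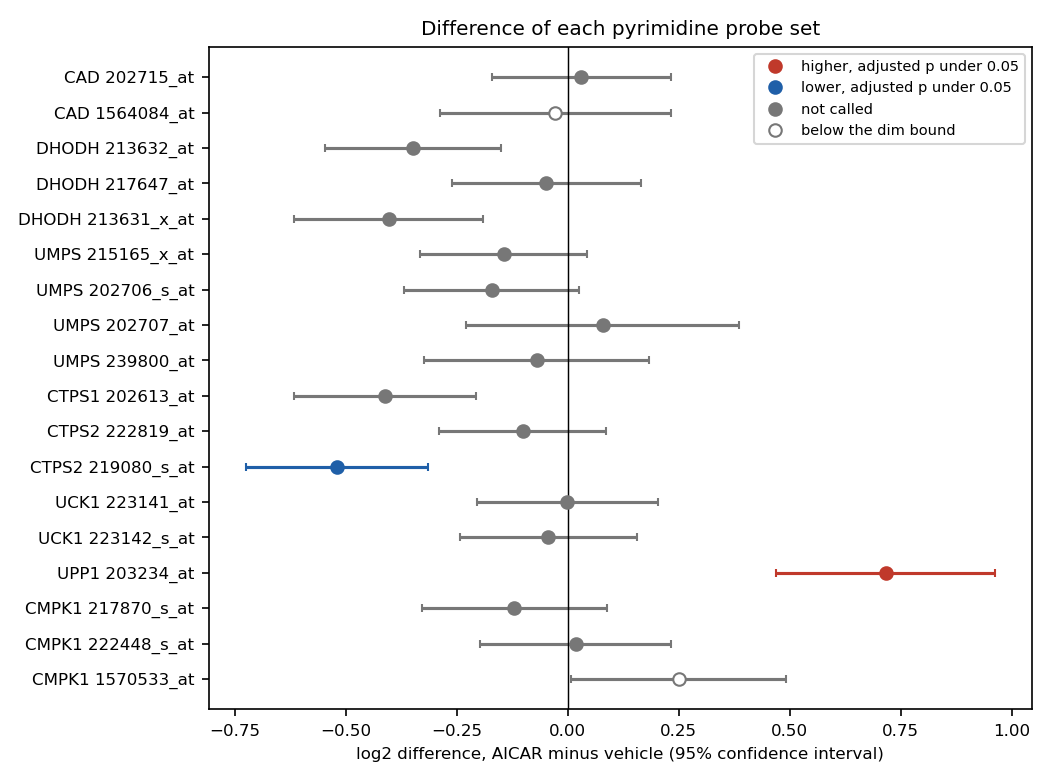
Log2 difference, AICAR minus vehicle, of each of the 18 pyrimidine probe sets (points) with its 95% confidence interval from limma (bars), with open points for probe sets below the dim bound. UPP1 at 0.72 is the one called rise and CTPS2 219080_s_at at -0.52 the one called fall, and the intervals of CTPS1, of 2 DHODH probe sets and of the dim CMPK1 probe set also exclude 0 before adjustment.

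Among the salvage enzymes UPP1 rose. Uridine phosphorylase 1 helps to set how much uridine a cell keeps, and the ribose it frees can enter carbon metabolism. Its only probe set, 203234_at, read 7.85 and 7.78 (log2) in AICAR cells and 7.21 and 6.99 in vehicle cells. The lower AICAR value exceeded the higher vehicle value by more than the distance between the vehicle arrays. The level was 1.64-fold higher with AICAR (difference 0.72, SE 0.102, 95% confidence interval 0.47 to 0.96, limma adjusted p = 0.0272), and 99.5% of tested probe sets had a lower difference.

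UCK1, a uridine and cytidine kinase, did not differ detectably. Its probe set 223141_at read 10.35 and 10.25 (log2) with AICAR and 10.34 and 10.26 with vehicle, a difference of -0.00065 (95% confidence interval -0.20 to 0.20), and 223142_s_at differed by -0.04 (-0.24 to 0.16). These intervals exclude a difference as large as that of UPP1 in either direction. CMPK1, the kinase of UMP and CMP, gave 11.75 and 11.87 with AICAR and 11.90 and 11.96 with vehicle in 217870_s_at, which did not overlap and differed by -0.12 (-0.33 to 0.09, limma adjusted p = 0.491). Its probe set 222448_s_at overlapped between groups and differed by 0.02 (-0.20 to 0.23). The dim 1570533_at read 4.66 and 4.86 with AICAR and 4.48 and 4.55 with vehicle, and in a fit without the filter it differed by 0.25 (adjusted p = 0.293).

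Both calls needed all 4 arrays. Without any 1 array, the difference of UPP1 was 0.60 to 0.83 (limma adjusted p = 0.103 to 0.141) and that of CTPS2 219080_s_at -0.58 to -0.46 (adjusted p = 0.104 to 0.214), and in those fits 0 or 1 of all tested probe sets passed. Without the filter on dim probe sets CTPS2 219080_s_at missed the threshold (adjusted p = 0.0501).

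Neighbouring genes of pyrimidine metabolism were called about as often as genes in general. Of 63 genes in 6 lists, 59 had a probe set with 1 symbol and 57 were tested by their brightest one, while CDA and DPYS lay below the dim bound. Among the 57, 1 rose and 1 fell, beside 3.81% called among the brightest probe sets of all genes in either direction, 1.98% higher and 1.84% lower. In the list of thymidylate and deoxypyrimidine supply 1 of 11 fell, and the median difference was -0.16 (log2), against 0.02 over the brightest probe sets of all genes. The gene that fell was RRM2, the regulated subunit of ribonucleotide reductase. Its brightest probe set read 11.49 and 11.57 with AICAR and 12.04 and 12.10 with vehicle (difference -0.54, SE 0.0815, limma adjusted p = 0.0307), and its other probe set differed by -0.31 (adjusted p = 0.107).

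Of 11 genes in the list named for users of UTP and CTP, CDS1 rose and none fell, and the list median was 0.09 (log2). The list also holds genes such as UGDH, GNE and GALK1, whose enzymes use UDP-sugars or ATP rather than UTP or CTP. CDS1 joins CTP to phosphatidic acid to make CDP-diacylglycerol, a precursor of phosphatidylinositol. It read 10.04 and 10.16 with AICAR and 9.63 and 9.43 with vehicle (difference 0.57, SE 0.101, limma adjusted p = 0.0407). Each of its 4 probe sets had a positive difference, from 0.12 to 0.57, but only this one was called. The probe sets 226187_at (0.29, adjusted p = 0.130) and 205709_s_at (0.22, adjusted p = 0.326) were not. The one at 0.12, 222063_s_at, lay below the dim bound, and its groups overlapped. Without the dim filter CDS1 missed the threshold (adjusted p = 0.0543), and neither CDS1 (0.104 to 0.174) nor RRM2 (0.105 to 0.190) passed without any 1 array.

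The 10 tested genes of the list named for the supply of PRPP, glutamine or aspartate had 0 calls by limma. At an unadjusted p under 0.05 there were 4 with a negative and 0 with a positive difference, and the list had a median of -0.10 (log2). The same bound was reached by 3 negative and 0 positive genes of the thymidylate list. In the list named for users of UTP and CTP, 0 negative and 2 positive genes reached it, the latter being CDS1 and GNE. Among the brightest probe sets of all genes, 9.97% were negative and 10.3% positive at this bound. In the list named for the supply of PRPP, glutamine or aspartate, the largest differences were those of PRPSAP2 and SLC25A12. PRPSAP2, a partner protein of PRPP synthetase, read 9.38 and 9.33 with AICAR and 9.71 and 9.70 with vehicle (difference -0.35, adjusted p = 0.0684). The synthetases themselves, PRPS1 and PRPS2, differed by 0.03 and 0.04 in their brightest probe sets and by -0.10 and -0.26 in their others. SLC25A12, a mitochondrial aspartate-glutamate carrier, differed by -0.30 (adjusted p = 0.0931). PRPSAP2 passed where 1 probe set per gene was tested (adjusted p = 0.0428). Over the alternatives that kept all 4 arrays, its limma adjusted p ran from 0.0078 (trended robust variances) to 0.113 (blocking on the replicate number).

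The lists of nucleoside phosphate kinases (8 tested, median 0.04), pyrimidine breakdown and nucleotidases (10 tested, median 0.04) and nucleoside transport (7 tested, median 0.06) had 0 calls by limma, and 0 members at an unadjusted p under 0.05. Their largest differences were 0.22 for NME6 and -0.21 for AK3 among the kinases, and 0.19 for DPYD and 0.17 for NT5C among the breakdown genes. In nucleoside transport they were 0.16 for SLC28A1 and 0.14 for SLC29A4. The other NT5C probe set, 1557303_at, differed by -0.09, with overlapping groups (limma adjusted p = 0.686). The value of DPYD, which reduces uracil in the first step of its breakdown, depended on the probe set. Its brightest, 1554534_at, read 6.17 and 6.03 (log2) in AICAR cells and 5.89 and 5.93 in vehicle cells (adjusted p = 0.292). The dimmer DPYD probe set 204646_at read 5.07 and 5.39 with AICAR and 4.20 and 4.002 with vehicle. It lay below the bound for dim probe sets, and in a fit of all probe sets its difference was 1.13 (SE 0.132, adjusted p = 0.0217). The remaining one, 1554536_at, differed by -0.29 (adjusted p = 0.237).

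**Figure D3:**
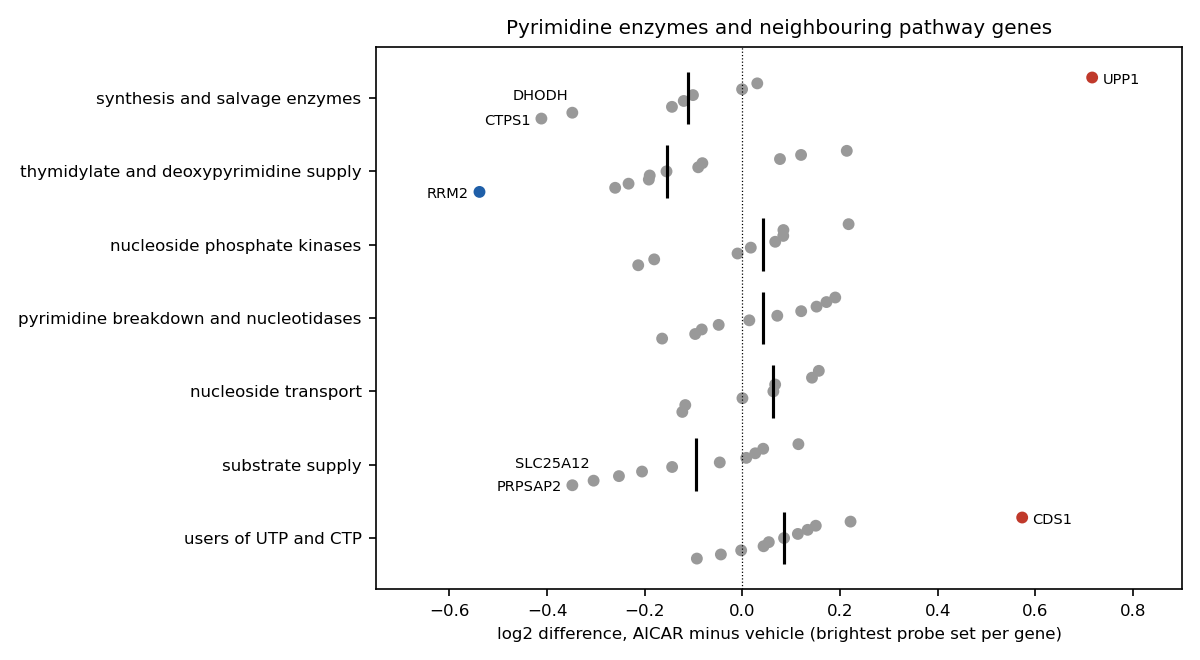
Log2 difference, AICAR minus vehicle, of the brightest probe set of each tested gene (points) in the pyrimidine enzymes and the 6 neighbouring lists, with the list median as a vertical bar and genes beyond 0.3 named. UPP1 (0.72) and CDS1 (0.57) are the called rises and RRM2 (-0.54) is the called fall, and the other points lie between -0.41 and 0.22.

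The arrays as a whole were alike and carried the marks of the line. Medians over all probe sets were 6.38 to 6.40 (log2) with AICAR and 6.37 to 6.38 with vehicle, and arrays correlated at r = 0.997 within groups and 0.994 to 0.995 between groups, across probe sets that are not independent. The 8 luminal and HER2 markers, ERBB2 and KRT8 among them, averaged 9.25 to 14.2 with AICAR and 9.30 to 14.1 with vehicle. None was called by limma, and 1, ESR1, reached an unadjusted p under 0.05 (difference -0.31, adjusted p = 0.0911). The 9 ESR1 probe sets ran from -0.31 to 0.12. Of 8 measured blood, endothelial and stromal markers 2, PTPRC and CDH5, lay below the dim bound, and group means ran from 4.63 to 9.38 with AICAR and 4.43 to 10.02 with vehicle. The collagen gene COL1A1 was among them with the highest means, 9.38 and 10.02, above those of the HER2 marker GRB7 (9.25 and 9.30). The brightest COL1A1 probe set fell by 0.63 (adjusted p = 0.0426) while its 5 probe sets ran from -0.63 to 0.13. Of the basal keratins KRT5 averaged 6.996 with AICAR and 6.91 with vehicle, and KRT14 was below the dim bound. Their part in the pyrimidine results was not tested.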

How the data were processed

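RNA of 2 AICAR and 2 vehicle samples of BT474 cells was profiled on Affymetrix arrays with biotin labelling. The authors deposited normalized log2 values, 1 per probe set and array. The submitters' processing notes name Affymetrix Expression Console. The version, summarization method and background step were not given in the sources used here. Dim probe sets may therefore have compressed differences. Of 54675 probe sets 62 were controls and were left out. The platform annotation gave 1 symbol for 41097 probe sets, several for 1801 and none for 11721 others, and 41043 symbols were updated through Entrez IDs with RefSeq (GRCh38.p14), which also supplied the promoter sequences.

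Differences were fitted per probe set by limma 3.58.1 in R 4.3.3 (lmFit, then eBayes), with Benjamini-Hochberg adjustment over 38229 probe sets. In 20 simulations of AICAR against vehicle with 38229 probe sets, 200 of them changed, the fit recovered 1.9% of differences of 0.5 and 82.6% of differences of 1 (log2), and 4.28% of its calls were false. A missed call near 0.5 was thus common with 200 changed probe sets. In the data 1469 probe sets were called, which makes the adjustment less strict. The share of differences near 0.5 missed in the data was therefore not measured. The simulated noise was normal and independent between probe sets.

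Members and gene lists were chosen with earlier results of these data known. The text names every member probe set and, from each list, up to 4 called genes with the largest differences, or the 2 largest where none was called. DPYD 204646_at, the motifs and the second CTPS2 contrast were chosen after values were seen, and COL1A1, ERBB2 and the other markers serve only as a check of the line. A UCK1 against UCK2 contrast was planned and was not run, since no probe set lists UCK2 alone and a probe set with several symbols was assigned to no gene. Alternatives covered the dim filter, quantile normalization, median centring, trended robust variances, 1 probe set or the probe set mean per gene, an adjusted p under 0.1, blocking on the replicate number, and leaving out each array.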

Additional observations from a re-analysis of the deposited data

How the results depend on the processing

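The pyrimidine counts, 1 probe set higher and 1 lower, changed with the filter, the unit of testing, the threshold, the variance model, quantile normalization and the replicate block. UPP1 passed under every alternative that kept all 4 arrays. The lower count was 2 with 1 probe set per gene and with quantile normalization. With 1 probe set per gene these were CTPS1 and DHODH 213632_at, and CTPS2, tested by 222819_at, did not pass (limma adjusted p = 0.442). The lower count was 3 with the 50th percentile filter, with trended robust variances and with probe set means. It was 4 at an adjusted p under 0.1 and 0 without the filter (4 at an unadjusted p under 0.05). Over all probe sets, 545 higher and 924 lower became 1230 and 2090 at an adjusted p under 0.1, 1603 and 2812 with trended robust variances, 886 and 1506 with the 50th percentile filter, 327 and 485 without a filter, and 513 and 526 with 1 probe set per gene. Quantile normalization gave 714 and 879, and median centring 486 and 997. In the 6 lists, 1 higher and 1 lower gene became 0 higher without a filter, and the lower count was 2 with 1 probe set per gene and with the 50th percentile filter, 3 at an adjusted p under 0.1 and with probe set means, and 7 with trended robust variances. Without any 1 array, 0 to 1 probe sets were higher and 0 to 0 lower over the whole array, and the pyrimidine and list counts were 0 to 0, though 4 pyrimidine probe sets were lower and 1 higher in each fit at an unadjusted p under 0.05. At that bound 2654 to 4345 probe sets of the whole array were lower and 2205 to 2990 higher. Such fits have 1 residual degree of freedom, and the lone array is assumed to vary like the other group.

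The replicate numbers share no stated culture or day, and same-numbered deviations of the groups correlated at r = -0.08 over probe sets. With the replicate block 322 probe sets were higher and 509 lower, 1 and 0 of them pyrimidine ones, and 0 list genes were higher. CTPS2 219080_s_at had an adjusted p of 0.0543 and CDS1 of 0.0606.

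The CTPS1 minus CTPS2 shift of -0.31 was -0.10 with probe set means, 0.11 with the other CTPS2 probe set, and -0.37 to -0.25 without any 1 array. Other signs turned only in differences that were not called. CMPK1 217870_s_at differed by -0.12, whereas the mean of all 3 CMPK1 probe sets, the dim 1570533_at at 0.25 among them, differed by 0.0492. With quantile normalization UCK1 223141_at gave 0.0351 and UCK1 223142_s_at 0.00084. Without any 1 array the range was -0.0248 to 0.0857 for CAD 202715_at, -0.0395 to 0.0751 for CMPK1 222448_s_at, -0.110 to 0.0138 for DHODH 217647_at and -0.0167 to 0.302 for SLC29A4. It was -0.0500 to 0.0487 for UCK1 223141_at, -0.0943 to 0.0066 for UCK1 223142_s_at, -0.0883 to 0.245 for UMPS 202707_at and -0.188 to 0.0477 for UMPS 239800_at.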
